A study of Mus musculus with 6 samples.

Results

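*Smpd3* (gene ID 58994), which encodes neutral sphingomyelinase 2, is 1 of the 312 genes in the deposited table, and its row was found by the gene symbol. It was chosen by its own values in these libraries, the fall in read count and TPM from adult to infant material, so the difference between the ages is described here without a test. The series compares adipose tissue macrophages (ATMs), as the labels name them, at postnatal day 6 (P6, infant) and postnatal day 56 (P56, adult), with 3 libraries per age and 6 in all. The methods of the study name the material of these ages as inguinal adipose tissue depots of C57BL/6 mice, an inbred strain that is wild-type here, and neither source names a treatment for these libraries. Both sexes were used in the study, and no source used here gives the sex or the pooling of the animals behind a library. RNA with a poly(A) tail was sequenced from every library.

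Sphingomyelin is an abundant lipid of the outer leaflet of the cell membrane. Neutral sphingomyelinase 2 is a membrane-bound enzyme that cleaves it into ceramide and phosphocholine. Ceramide is the hub of sphingolipid metabolism, from which sphingosine and the signalling lipid sphingosine-1-phosphate are made. The enzyme is known for a role in the budding of exosomes, small vesicles that cells release, and for skeletal mineralisation: the mouse mutant fragilitas ossium, with brittle bones, carries a deletion in *Smpd3*.

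The table holds only part of each library. Between 2.30% and 2.69% of a library's TPM, a level scaled for transcript length and depth, fell on listed genes, which held between 497044 and 816309 estimated read counts. The depth of each library was recovered from the ratio of read count to FPKM (fragments scaled by transcript length and by depth) over 196 genes. Relative to the mean of the 6 libraries, it was between 1.09 and 1.16 at P6 and between 0.795 and 0.937 at P56. None of the 20 macrophage markers and none of the 20 adipocyte markers looked for is among the listed genes, so the labelled cell type could not be checked with them. A gene that is not listed is not thereby absent from the RNA. Listed genes outside these markers include smooth muscle actin *Acta2*, at 489 TPM at P6 and 297 TPM at P56. The collagen chain *Col6a3* had 609 TPM at P6 and 639 TPM at P56. Also listed outside the markers are the kinase *Syk*, at 27.8 TPM at P6 and 62.7 TPM at P56, and the interferon regulatory factor *Irf5*. The latter had 35.5 TPM at P6 and 72.6 TPM at P56. These genes are examples only. Which cells such RNA came from was not tested. P56 replicate 3 had the least depth, and results are also given without it where it mattered.

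*Smpd3* was low in the infant libraries and abundant in the adult ones. At P6 its level was 4.80, 4.81 and 5.65 TPM in replicates 1, 2 and 3, from 203, 199 and 254 read counts. At P56 its level was 130.02, 118.62 and 87.83 TPM, from 4137, 3622 and 2551 read counts. The ages did not overlap: the lowest P56 library lay 15.5-fold above the highest P6 library in TPM, and the farthest libraries differed 27.1-fold. The mean level was 5.09 ± 0.488 TPM at P6 (SD, n = 3) and 112 ± 21.8 TPM at P56 (SD, n = 3), a 22.0-fold difference of the means. In bulk RNA, fewer cells that express a gene and less of its RNA per cell cannot be told apart.

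**Figure D1:**
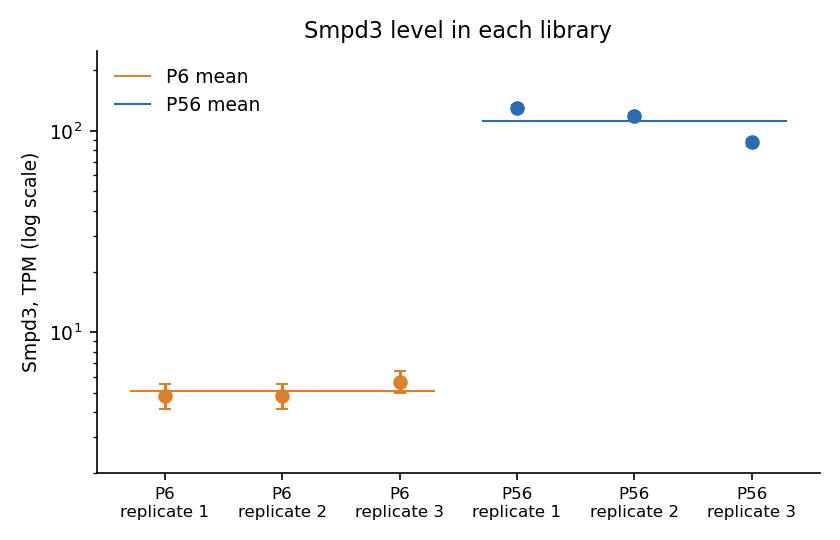
Level of *Smpd3* in TPM (log axis) in each of the 6 libraries, P6 in orange and P56 in blue. Points are libraries, bars are 95% exact Poisson intervals of the read count, which cover counting error only, and lines are the means of the 3 libraries of an age; the P6 libraries sit between 4.80 and 5.65 TPM and the P56 libraries between 87.83 and 130.02 TPM.

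The P6 libraries were the deeper ones. Divided by the recovered depth, *Smpd3* had 180, 182 and 219 counts at P6 and 4416, 4078 and 3211 counts at P56. The difference of the mean log2 counts, P6 minus P56, was −4.33. Summed over the libraries of an age, 656 counts at P6 stood against 10310 counts at P56, which is 20.3-fold after the depth is divided out. Its 95% exact interval ran from 18.7 to 22.0 and describes counting error, not the spread between libraries. With each library left out in turn, the log2 difference lay between −4.46, without P56 replicate 3, and −4.23, without P56 replicate 1. With equal library sizes, which leave the depth difference in the values, it was −3.95.

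Among the listed genes, *Smpd3* moved from near the bottom to the upper part of the order of levels. Its mean TPM ranked 273 of 312 at P6 and 51 of 312 at P56. Its neighbours at P6 were *Dgkh*, a diacylglycerol kinase, at 5.16 ± 0.574 TPM, *Paqr8* at 5.12 ± 0.442 TPM, *Utp20*, a factor of ribosome assembly, at 4.98 ± 0.0300 TPM and *Rif1*, a regulator of replication timing, at 4.81 ± 0.139 TPM (SD, n = 3), and *Smpd3* differed from each of these by less than its own SD of 0.488 TPM. Its neighbours at P56 were the kinase *Wnk1* at 115 ± 19.0 TPM, the collagen crosslinker *Lox* at 113 ± 13.8 TPM, the GTPase *Rnd1* at 108 ± 9.61 TPM and *Mustn1* at 107 ± 5.06 TPM (SD, n = 3), again within its SD of 21.8 TPM. The 4 neighbours at P6 had between 2.32 and 6.96 TPM at P56. Those at P56 had between 77.8 and 206.7 TPM at P6. *Smpd3* was chosen for its change between the ages, so its distance from these neighbours at the other age follows from that choice.

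Genes whose counts averaged under 10 were left out, and of the remaining 310, *Smpd3* had the lowest log2 difference. The next lowest was −1.83, so that 2.50 on the log2 scale separated *Smpd3* from every other gene that was lower at P6. The median over the 310 genes was −0.01, and the 5th and 95th percentiles were −1.02 and 1.80. A log2 difference of at least 2 in size was found in 13 genes that were higher at P6 and, on the lower side, in *Smpd3* alone. These positions describe the value that chose the gene.

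**Figure D2:**
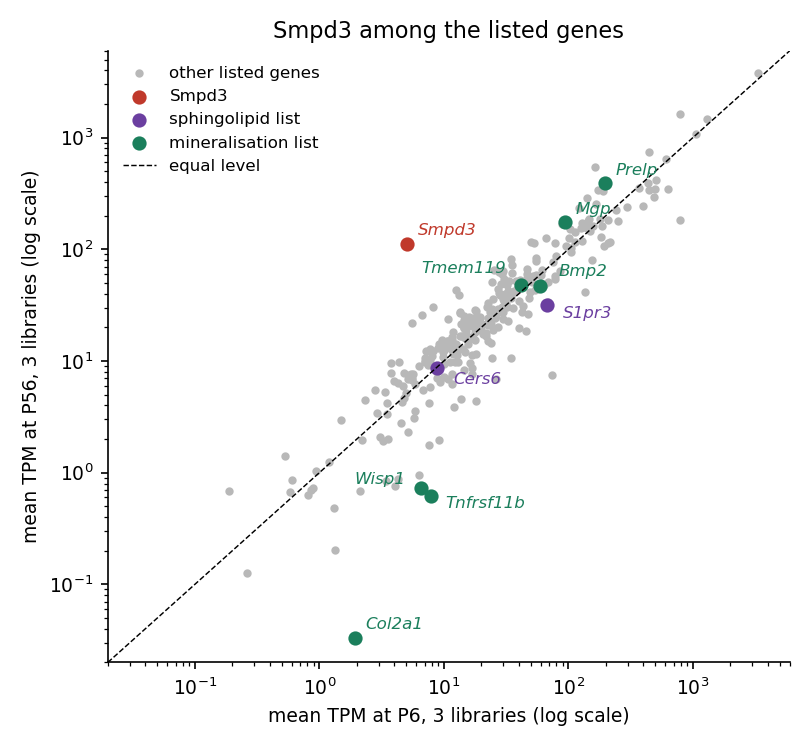
Mean TPM at P56 against mean TPM at P6 (log axes, 3 libraries per age) for the 312 listed genes in grey, with *Smpd3* in red and the listed members of the sphingolipid and mineralisation lists in colour. The dashed line marks equal levels; *Smpd3*, at 5.09 and 112 TPM, lies farther above it than any other gene, and *Col2a1* lies farthest below it.

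Next, the lengths behind the values were compared, because *Smpd3* has transcripts of different length and this measure does not use the difference in level. The GENCODE M21 annotation, whose build may not be that of the authors, lists Smpd3-201 with 5148 bp and the shorter Smpd3-202 with 2626 bp. Within a library, read count divided by FPKM is proportional to the transcript length by which the authors' tool scaled the gene. Which *Smpd3* transcripts the authors' annotation held is not known here. If it held only 1, this length was fixed and could not respond to transcript use. Calibrated on 13 genes with a single annotated transcript, this length was between 5173 and 5204 bp for *Smpd3* in the 6 libraries, close to the longer transcript at P6 and at P56. The log2 difference between the ages (P6 minus P56) relative to the median gene was 0.0036, slightly above the 0.0031 that the rounding of the FPKM allows at the lowest level. With each library left out in turn it lay between 0.0021, without P6 replicate 2, and 0.0047, without P56 replicate 1. A two-sided exact permutation test gave p = 0.2, and since 3 libraries against 3 cannot go below 0.1, it can show neither a difference nor its absence. The length was not held fixed in every gene: among 263 genes with an FPKM over 2 in every library, 16 had a shift of more than 0.05 in size, the largest being −0.31 in *Phc3*, a Polycomb group gene. The shift of *Smpd3* was small beside its log2 difference in level of −4.33, and reads along the transcript were not analysed here.

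**Figure D3:**
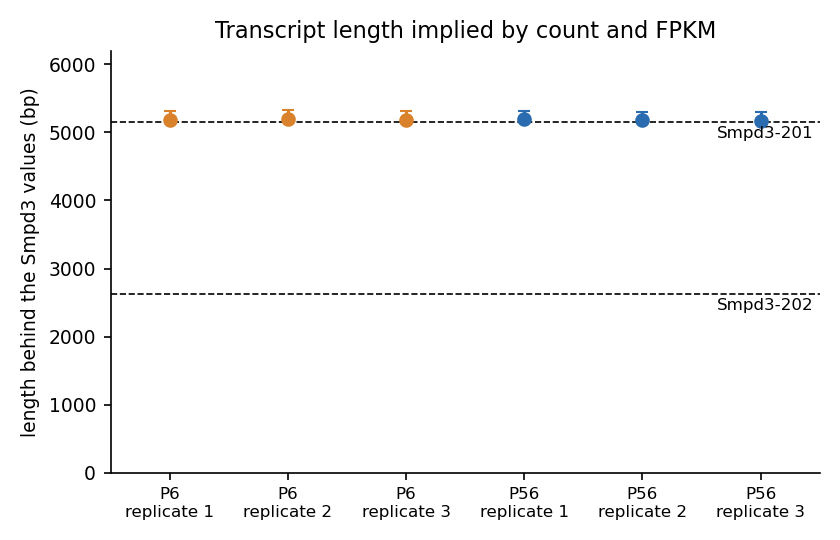
Transcript length (bp) implied by read count and FPKM of *Smpd3* in each library, P6 in orange and P56 in blue. Bars show the range with the lower and upper quartile of the 13 calibrating genes, and dashed lines mark the annotated lengths of the transcripts; all 6 points lie between 5173 and 5204 bp, near Smpd3-201 and far above Smpd3-202.

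At the recovered depth, the libraries of an age were more spread for *Smpd3* than for most genes of its level. Its coefficient of variation was 11.2% at P6 and 15.9% at P56, where counting error alone would give 6.76% and 1.71%. The median over the 310 genes was 6.21% at P6 and 10.5% at P56. Of genes within 2-fold of its mean TPM, 50 of 72 had a lower coefficient at P6 and 48 of 51 at P56. The P56 value depended on the scaling, and was 9.19% with TMM, a scaling that takes most listed genes as equal. The genes of its level were not compared with that scaling. P56 replicate 3 was the low library: its log2 count there minus the mean of the other P56 libraries was −0.40, where the median gene had −0.18. Among 60 genes whose longest transcript is within 0.25 on the log2 scale of that of *Smpd3*, the median of this difference was −0.16, and 4 had a lower value than *Smpd3*. The part of this library's depth or RNA in that value was not tested.

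**Figure D4:**
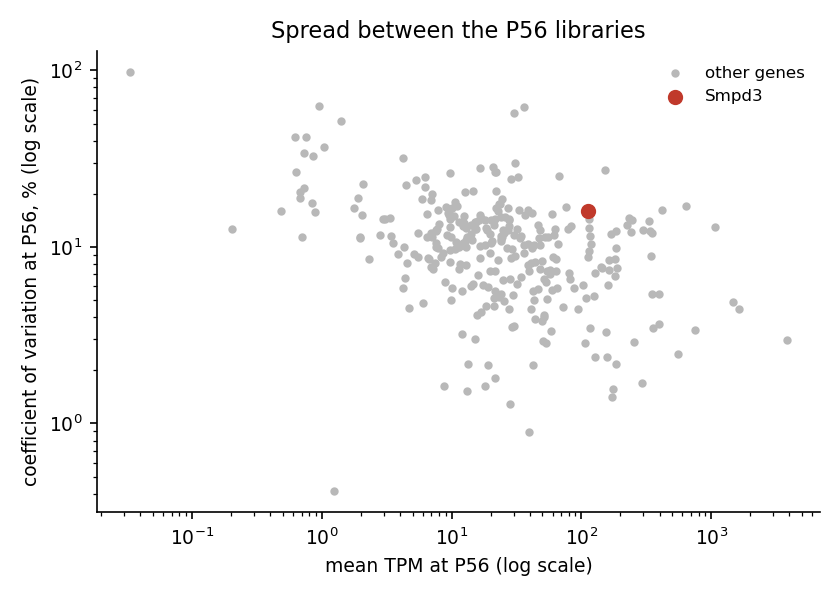
Coefficient of variation (%) between the 3 P56 libraries at the recovered depth against mean TPM at P56 (log axes) for 310 genes, *Smpd3* in red. *Smpd3*, at 15.9%, lies in the upper part of the genes of its level.

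The sphingolipid genes around *Smpd3* were looked for with a list of 65 enzymes, carriers and receptors. Of this list, only *Cers6* and *S1pr3* are among the listed genes beside *Smpd3*. The other sphingomyelinases, the ceramidases and the sphingosine kinases were therefore not analysed here. *Fads3*, a sphingolipid enzyme outside this list, is described under other observations. Between the ages 64.2% of the 310 tested genes were called (edgeR's quasi-likelihood test, adjusted p under 0.05), 30.3% as higher and 33.9% as lower at P6. Of the 2 list members beside *Smpd3*, 1 was called. *S1pr3*, a receptor for sphingosine-1-phosphate, had 64.70, 69.02 and 67.40 TPM at P6 and 33.79, 33.28 and 28.07 TPM at P56. It rose at P6, opposite to *Smpd3*, with an edgeR log2 fold change of 1.20 (adjusted p = 5.54e-07, standard error 0.09). *Cers6*, a ceramide synthase, had 9.05, 9.26 and 8.07 TPM at P6 and 9.32, 8.97 and 7.84 TPM at P56, and these ranges overlapped. At the recovered depth its counts lay between 393 and 422 at P6 and between 370 and 383 at P56. The share of all genes without overlap was not worked out, so nothing is read from this for *Cers6*. By edgeR it differed by 0.12 on the log2 scale, with a standard error of 0.10 and an adjusted p of 0.306, and with equal library sizes it was 0.49 and past the threshold (adjusted p = 0.0161 from edgeR). None of 30 genes of vesicle release is listed.

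Of 41 genes of cartilage and bone mineralisation, the process for which the loss of *Smpd3* is known in mice, 7 are listed. Of these, 4 rose at P6, 2 fell at P6 and 1 was not called. Of all 310 tested genes, 30.3% were called as higher and 33.9% as lower at P6. With 7 genes, the split was not tested against these shares. The median edgeR log2 fold change of the 7 was 0.46. Over the 310 genes, the median difference of the mean log2 counts, a different measure, was −0.01. The 4 that rose were *Col2a1*, *Tnfrsf11b*, *Wisp1* and *Bmp2*. *Col2a1*, the chain of cartilage collagen, had 96, 62 and 88 counts at P6 and 2, 1 and 0 counts at P56. Per unit of depth this was a ratio of 63.5 (95% exact interval 21.5 to 310.3, counting error only; adjusted p = 1.62e-06 from edgeR). *Tnfrsf11b*, the decoy receptor that restrains osteoclasts, had 7.85 ± 0.377 TPM at P6 and 0.623 ± 0.273 TPM at P56 (SD, n = 3). *Bmp2*, a bone morphogenetic protein, had the smallest of these rises, from between 39.24 and 52.56 TPM at P56 to between 57.70 and 60.10 TPM at P6 (log2 fold change 0.46, standard error 0.10, adjusted p = 0.00163 from edgeR).

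The 2 that moved in the direction of *Smpd3* were the matrix proteins *Mgp* and *Prelp*, while the matrix collagen *Col2a1* moved the other way. *Mgp*, an inhibitor of calcification, had 124.40, 62.75 and 93.07 TPM at P6 and 183.83, 173.19 and 168.12 TPM at P56 (log2 fold change −0.79, standard error 0.19, adjusted p = 0.0035 from edgeR), and its infant libraries were widely spread. *Prelp*, a leucine-rich proteoglycan, had 198 ± 10.3 TPM at P6 and 393 ± 27.2 TPM at P56 (SD, n = 3; log2 fold change −0.87, standard error 0.08, adjusted p = 2.04e-06 from edgeR). *Tmem119*, a membrane protein of osteoblasts, had a log2 fold change of −0.08 (standard error 0.09, adjusted p = 0.472 from edgeR), which turned to 0.28 with equal library sizes. *Tnfrsf11b* and *Wisp1*, a secreted protein of the Wnt pathway, had log2 fold changes of 3.76 and 3.28 (adjusted p = 2.67e-07 for each, edgeR), opposite in sign to *Smpd3*.

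The genes with the profile most like that of *Smpd3* over the 6 libraries were then found among all listed genes. With log2(TPM + 1) centred on each gene's mean over the 6 libraries, the profile of *Smpd3* had a length of 5.16, and the Euclidean distance to the other 309 genes had a median of 5.0004. The 5 nearest were *Col4a5*, a chain of basement membrane collagen, at 2.98, *9930111J21Rik1* at 2.996, *Acta1*, skeletal muscle actin, at 3.02, *Zhx3*, a transcription factor, at 3.07, and *Kifc3*, a kinesin motor, at 3.35. *Col4a5* had 6.73, 6.77 and 6.69 TPM at P6 and 27.99, 28.73 and 20.35 TPM at P56. Its lowest adult library was P56 replicate 3, as it was in TPM for *Smpd3* and for each of the 5 nearest genes. At the recovered depth *Acta1* was instead highest there, with 5502 counts against 5279 and 5267 in P56 replicates 1 and 2. The median gene at that depth was lower in P56 replicate 3, with −0.18 on the log2 scale against the other P56 libraries. The distance also reflects the contrast of the ages, so it is given as a description.

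**Figure D5:**
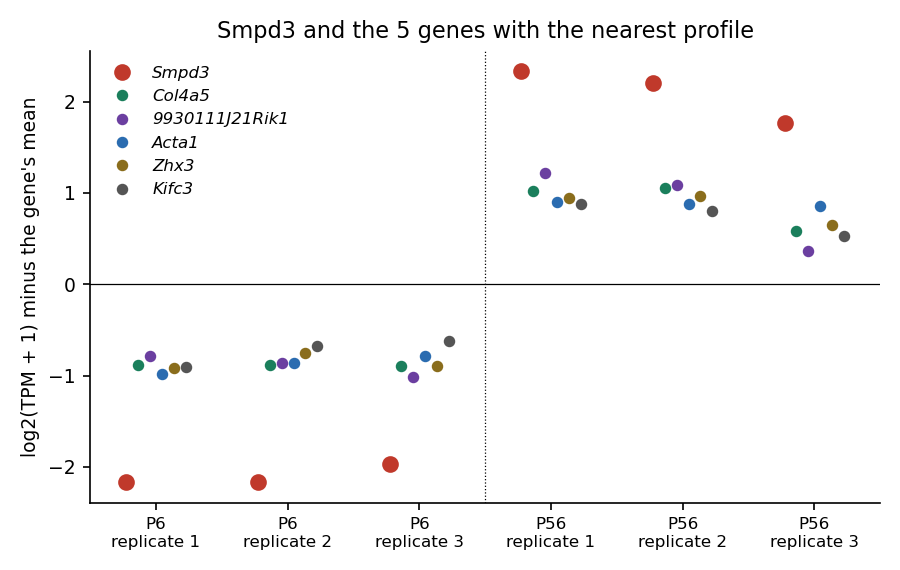
Log2(TPM + 1) minus the gene's mean over the 6 libraries for *Smpd3* (large red points) and the 5 genes with the nearest profile. The points of a library are set side by side, and the dotted line separates P6 from P56; each of the 5 genes is low at P6 and high at P56, by less than *Smpd3*.

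By Pearson's r over the 6 libraries, which ignores size, the 5 most alike were *Acta1* (0.997), *Zhx3* (0.996), *Amotl2* (0.996), an angiomotin-like protein, *Rflnb* (0.995), a regulator of filamin, and *Col4a5* (0.995). The coefficient exceeded 0.9 in 77 of the 309 genes. With 2 clusters of 3 libraries it reflects the contrast of the ages, so it is given as a description. *Acta1*, the best match by r, had 150.75, 164.79 and 173.16 TPM at P6 and 561.55, 550.60 and 541.80 TPM at P56. It is the only listed one of 10 skeletal muscle markers, and it fell at P6 by 1.64 on the log2 scale (standard error 0.09, adjusted p = 9.84e-08 from edgeR), so this marker moved with *Smpd3*. Of other sarcomere genes outside that marker list, *Neb* was also lower at P6, with a log2 difference of −1.71. *Myom1*, looked up after the values were seen, went the other way, with 6.86 TPM at P6 and 5.53 TPM at P56 and a log2 difference of 0.39. *Lrrc39*, likewise looked up afterwards, had a log2 difference of 0.12 at the recovered depth, and 3.50 TPM at P6 against 4.24 TPM at P56. Replicates were widely spread, with a coefficient of variation of 26.3% for *Myom1* at P6 and 31.7% for *Lrrc39* at P56. Other listed muscle genes were not gathered here, so these few do not stand for muscle genes as a set. The part of muscle RNA in the result was not tested. None of 8 neuron and Schwann cell markers, 10 lymphocyte markers, 12 fibroblast and preadipocyte markers, 8 endothelial markers and 6 epithelial markers is listed.

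The 5 genes next to *Smpd3* in the order of falls were *9930111J21Rik1*, *Col4a5*, *Neb*, *Zhx3* and *Aldh1a7*, with log2 differences between −1.83 and −1.65. *Zhx3* went from 12.6 ± 0.828 TPM at P6 to 43.7 ± 5.19 TPM at P56 (SD, n = 3). *Neb*, nebulin of the muscle thin filament, stayed under 1 TPM in every library. *Aldh1a7*, an aldehyde dehydrogenase, had 15.52, 28.12 and 47.73 TPM at P56, and its highest adult library was P56 replicate 3, the lowest adult library of *Smpd3*. The counts of *9930111J21Rik1* were not whole, as happens where reads are shared between related genes, and are uncertain.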

How the data were processed

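The members and gene lists were chosen with earlier results of these data known, and the tests and alternatives likewise. The authors deposited, for 312 selected genes and 6 libraries, TPM, FPKM and estimated counts (expected counts of the RSEM type, without normalization), with their own log2 ratio, p-value and q-value, which were not used. According to the labels, the processing used HISAT, Bowtie2, RSEM and DESeq2. No source used here gives their versions, the genome build or the rule by which the genes were selected. The deposited list is titled DEGs, differently expressed genes. Shares of called genes and adjusted p-values therefore describe a selected list, not all genes of the libraries.

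Libraries were grouped by the age in their titles. Counts, of which 23 genes had one that was not whole, were rounded and fitted with the quasi-likelihood test of edgeR 4.0.16 (R 4.3.3), with Benjamini-Hochberg adjustment over all 310 genes whose counts averaged 10 or more and a threshold of 0.05. Library sizes were the recovered depth, the median of count over FPKM over the 196 genes whose FPKM exceeded 5 throughout. Standard errors came from the fold change and the F statistic. On simulated data for P6 against P56 (310 genes), the fit recovered 100% of 200 genes changed by a log2 of 1 and called 3 others. Every simulated gene had the same dispersion and no smaller change was simulated. The recovery of smaller changes and of more widely spread genes was therefore not covered. Nothing says that the libraries came from separate animals, so adjusted p-values measure only the spread between these libraries.

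The named genes are *Smpd3*, the listed members of 3 gene lists, the 5 nearest profiles by distance and by r, the next 5 falls, and the 2 level neighbours on each side. Alternatives were equal library sizes, TMM, median-of-ratios size factors, DESeq2 1.42.0, limma 3.58.1 on log2(TPM + 1) where TPM averaged 1 or more, other filters, a replicate block and each library left out. Coordinates and sequence of *Smpd3* were not used here.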

Additional observations from a re-analysis of the deposited data

How the results depend on the processing

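The log2 difference of *Smpd3* kept its sign in all 15 alternatives and moved by more than the spread between replicates only with equal library sizes, to −3.95, since the P6 libraries are deeper. TPM gave −4.45 and log2(TPM + 1) −4.20. The number of genes called was 199, and between 172 and 221 with each library left out. Equal library sizes split the calls into 148 higher and 34 lower at P6, in place of 94 and 105. Asking for a log2 change of 1 or more left 50 genes, 32 higher and 18 lower, by its construction. Same-numbered libraries had correlations of deviations of 0.097, 0.13 and 0.24, so the numbers were not taken as pairs. With the replicate block, 213 genes were called, the *Smpd3* value was −4.32 and no listed member of the gene lists changed its call.

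Of the list members, *Tmem119* turned from −0.08 to 0.28 and *Cers6* passed the threshold with equal library sizes, and the other 8 kept direction and call in every alternative that tested them. The coefficient of variation of *Smpd3* at P56, 15.9%, was 9.19% with TMM and 9.92% with median-of-ratios size factors, alternatives chosen after seeing the data. The log2 shift in count per FPKM of *Smpd3* stayed positive in 8 alternatives, from 0.0021 without P6 replicate 2 to 0.0047 without P56 replicate 1. Depth limits *Smpd3* little at P56 and more at P6, where a library held 199 to 254 counts.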

Other observations

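*Fads3*, an enzyme that desaturates the sphingoid base of ceramides, is also listed and was singled out after its values were seen. It had 45.95, 47.69 and 46.79 TPM at P6 and 56.02, 62.43 and 82.80 TPM at P56, with P56 replicate 3 the highest adult library, where *Smpd3* was lowest. By edgeR it fell at P6, with a log2 change of −0.41 and a standard error of 0.15 (adjusted p = 0.0309). The call was lost in 6 of 14 alternatives. In 4 of these the log2 change stayed about as large, at −0.41 with TMM and with median-of-ratios size factors, −0.39 without P6 replicate 1 and −0.42 without P6 replicate 3. In the others it was −0.19 without P56 replicate 3 (adjusted p = 0.0515 from edgeR) and −0.02 with equal library sizes (adjusted p = 0.927 from edgeR).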
